A study of Homo sapiens with 6 samples.

Results

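Genes for splicing regulators were examined in DU145 cells, an established human prostate cancer cell line, with and without overexpression of the circular RNA circCSPP1. The genes were all rows of the deposited expression table whose symbol begins with HNRNP (heterogeneous nuclear ribonucleoproteins, 26 genes) or SRSF (serine/arginine-rich splicing factors, called SR proteins here, 12 genes), together with 11 further regulators, QKI, ADAR, DHX9, ESRP1, ESRP2, RBFOX2, PTBP1, PTBP3, MBNL1, MBNL2 and MBNL3, which made 49 of 19727 genes. The rule uses names and no measured value, although the members were chosen with earlier results of these data known. The study compared 3 libraries of DU145 cells carrying lentivirus-circCSPP1 (labelled OE) with 3 libraries of DU145 cells carrying the control lentivirus-NC (labelled NC, genotype normal). Per the study's methods, lentiviral lines were selected with puromycin to give stable lines, so both groups carry a vector and went through selection. The labels themselves name the genotype and not the virus. Nothing in the labels says that the replicates came from separate cultures, and p-values measure only the spread between these libraries, which may be technical.

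Splicing joins exons in order, and back-splicing instead joins the end of an exon to the start of an upstream exon, which closes a circular RNA. SR proteins mostly bind exons and favour their inclusion, whereas many hnRNP proteins bind introns or exons and favour skipping. Proteins that bind the introns flanking an exon can bring its ends together and favour a circle, as QKI and Muscleblind are known to do, while DHX9 and ADAR act on paired inverted repeats and can oppose it. HNRNPL, which binds CA repeats, is the regulator that the study places upstream of circCSPP1, and the comparison described here asks the converse, namely how the mRNAs of HNRNPL and its relatives stood when circCSPP1 was overexpressed.

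The libraries held an estimated 28800000 to 36700000 fragments, and the groups overlapped in depth. Values are FPKM (fragments scaled to transcript length and to the sequenced depth of the library), which are comparable between genes of different length. CSPP1, the parent gene, was higher in all 3 lentivirus-circCSPP1 libraries (log2 fold change 0.94, standard error 0.17, adjusted p = 0.016 from limma). This gene-level value cannot separate the circle or the vector from the linear mRNA. The paper reports from its own assays that lentivirus-circCSPP1 did not change linear CSPP1 mRNA or CSPP1 protein in DU145. The difference between that report and the value here was not tested. Of 6 epithelial markers, 5 had a mean of at least 1 FPKM, and their summed level was 1860 to 1920 FPKM in lentivirus-NC and 924 to 1060 FPKM in lentivirus-circCSPP1. The prostate differentiation markers KLK2, KLK3 and FOLH1 were listed at 0 in all libraries. The markers of leukocytes, endothelium, fibroblasts and smooth muscle summed to 49.8 to 56.3 and 39.0 to 54.5 FPKM, most of it CD68, and the leukocyte marker PTPRC stayed at or under 0.08 FPKM. The lentivirus-circCSPP1 libraries differed from each other along GC content. In replicate 1 of this group, the departure of a gene from the other replicates followed its GC content (Spearman's rho 0.808 across 7658 genes). The same measure was -0.754 in replicate 2 and -0.556 in replicate 3 of this group. In lentivirus-NC replicates 1, 2 and 3 it was 0.114, -0.08 and -0.024. Each departure is taken against the other replicates, so these values cannot say which library is the unusual one. Values without lentivirus-circCSPP1 replicate 1 are given beside the results it moves most.

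The members spanned a wide range of levels. Averaged over the 6 libraries, 16 of the 49 genes were above 100 FPKM, 23 lay between 10 and 100 FPKM, and 3 between 1 and 10 FPKM. HNRNPA1, a shuttling splicing silencer and one of the most abundant nuclear RNA-binding proteins, had the highest level at 595 FPKM, followed by the poly(C)-binding HNRNPK at 361 FPKM and HNRNPA2B1 at 344 FPKM. HNRNPL ranked 9 of 49 at 200 FPKM. Among SR proteins SRSF9 was highest at 261 FPKM and SRSF12 lowest at 0.748 FPKM. 7 members had a mean under 1 FPKM and were not tested, namely SRSF12, ESRP1, MBNL3 and the HNRNPC-like genes HNRNPCL1, HNRNPCL2, HNRNPCL3 and HNRNPCL4, of which the last 4 were listed at 0 in each library. Fragments from near-identical copies could have been split by the authors' counting, which makes HNRNPA1, its copies HNRNPA1L2 and HNRNPA1P48, and HNRNPC uncertain.

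Of the 42 members tested, 3 passed an adjusted p of 0.05 (limma, with the Benjamini-Hochberg method applied to all 12322 genes tested). MBNL1 was higher with lentivirus-circCSPP1, and MBNL2 and DHX9 were lower. The share of members called was 7.14%, beside 11.4% of all genes tested. In single directions it was 2.38% higher and 4.76% lower, beside 4.69% and 6.66% of all genes. None of the 22 hnRNP genes and none of the 11 SR genes passed (limma), while 4 and 2 of them had an unadjusted p under 0.05 (28.2% of all genes did). An unmoderated test called 1 in each family (HNRNPA0 and SRSF8), and it called 6.77% of all genes. The values of the groups did not overlap in 18 members (42.9%), 7 above and 11 below, beside 36.4%, 16.0% and 20.5% of all genes. The median log2 fold change over the 42 was -0.02, and that of all genes -0.03, with 20 members positive and 22 negative. Fewer cells expressing a gene and less RNA per cell cannot be told apart in such bulk libraries.

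**Figure D1:**
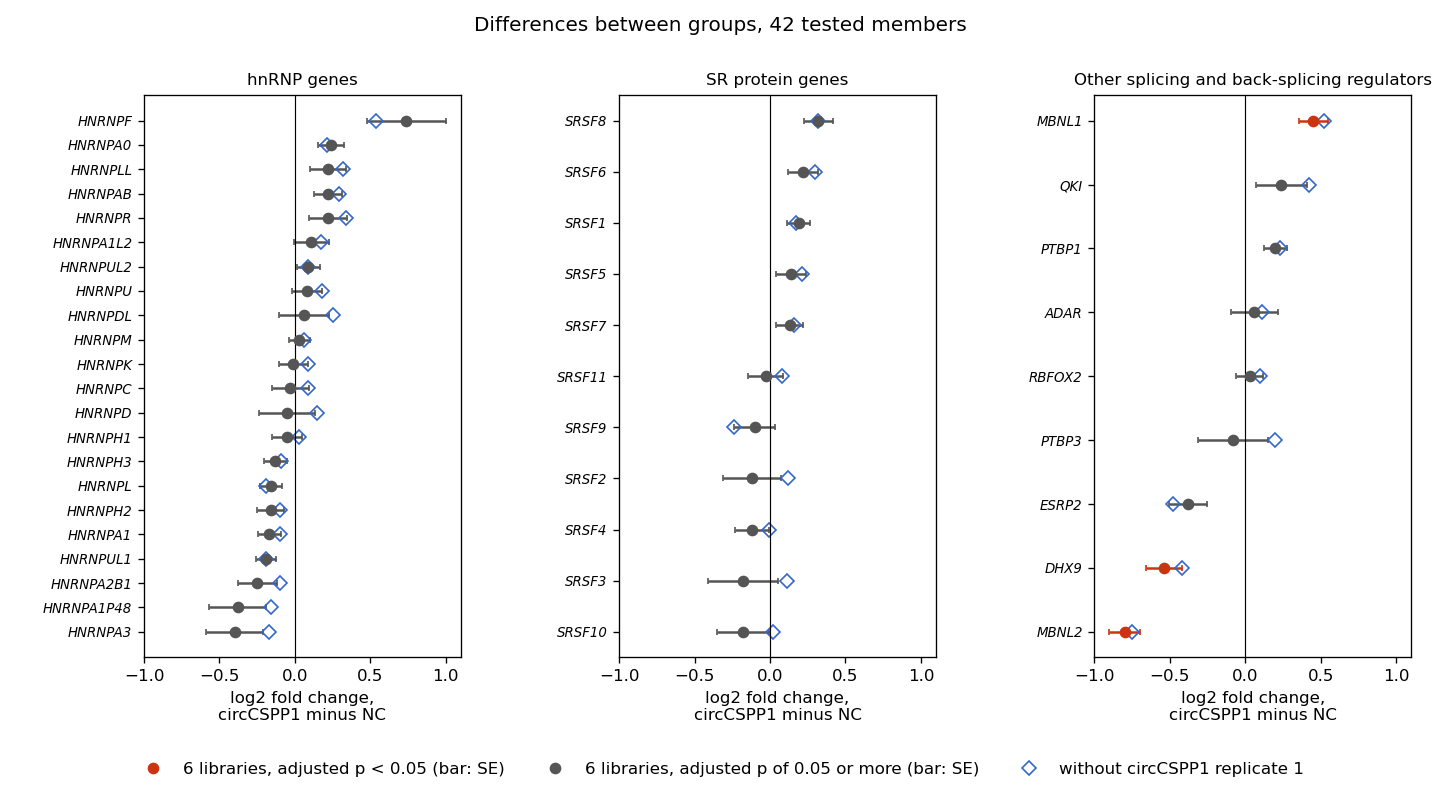
Log2 fold change (lentivirus-circCSPP1 minus lentivirus-NC, on the log2(FPKM + 1) scale) of the 42 tested members by family, with bars of 1 standard error. Red points (MBNL1, MBNL2 and DHX9) passed an adjusted p of 0.05, grey points did not, and open diamonds give the fold change without lentivirus-circCSPP1 replicate 1.

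The count depended on single libraries. Without lentivirus-circCSPP1 replicate 1, 15 of 42 members were called (35.7%, 11 higher and 4 lower), beside 28.5% of all genes (13.2% higher and 15.3% lower). The 12 gained were HNRNPA0, HNRNPAB, HNRNPDL, HNRNPLL, HNRNPR, HNRNPU, PTBP1, QKI, SRSF6 and SRSF8 on the higher side, and ESRP2 and HNRNPUL1 on the lower side. Leaving out a library that departs from its group can narrow the spread and so lower the adjusted p. This fit also keeps lentivirus-circCSPP1 replicates 2 and 3, whose departures ran against GC content, while most members are AT-rich. After a correction for GC content and length, 7.14% of members were called higher, beside 14.4% of all genes. The part of GC content in the 11 higher calls was not tested. Without lentivirus-circCSPP1 replicate 2 there were 4, with HNRNPF added, beside 9.41% of all genes. Without any 1 of lentivirus-NC replicates 1, 2 and 3 or of lentivirus-circCSPP1 replicate 3, MBNL2 was the single member called, beside 2.43%, 2.57%, 3.30% and 3.65% of all genes in that order.

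The Muscleblind genes encode zinc-finger proteins that bind YGCY motifs and set the exon choice of differentiated cells, and their sequestration by expanded CUG repeats underlies myotonic dystrophy. MBNL2 (chromosome 13, 97221434 to 97394120, GRCh38) measured 11.7, 12.3 and 11.5 FPKM in the control libraries (always in the order of replicates 1, 2 and 3) and 5.84, 6.85 and 6.44 FPKM with lentivirus-circCSPP1. The groups were far apart, and each was tight. Group means of 11.8 ± 0.398 and 6.38 ± 0.508 FPKM (SD, n = 3) gave a ratio of 0.539. MBNL2 fell by 0.80 on the log2 scale (standard error 0.105, limma adjusted p = 0.0059), the largest change among the called members, and it passed under each of the 18 alternatives, with log2 fold changes from -0.89 to -0.73.

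MBNL1 (chromosome 3, 152243828 to 152465780) went the other way. It measured 57.8, 58.4 and 58.6 FPKM in the lentivirus-NC libraries and 71.9, 89.0 and 79.6 FPKM in the lentivirus-circCSPP1 libraries. Each lentivirus-circCSPP1 library was above each lentivirus-NC library, with a wider spread in the former. The means of 58.3 ± 0.403 and 80.2 ± 8.54 FPKM (SD, n = 3) gave a log2 fold change of 0.45 (standard error 0.096, limma adjusted p = 0.027). The adjusted p was 0.12, 0.11 and 0.10 without lentivirus-NC replicates 1, 2 and 3, 0.097 without lentivirus-circCSPP1 replicate 3, and 0.0040 without replicate 1 of that group. Its adjusted p was 0.054 with the replicate number as a block and 0.067 without moderation of the variance. MBNL3 was barely expressed, at 0.61, 0.35 and 0.65 FPKM in lentivirus-NC and 0.15, 0.81 and 0.39 FPKM in lentivirus-circCSPP1, and its groups overlapped. MBNL1 was the most abundant Muscleblind mRNA in both groups.

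**Figure D2:**
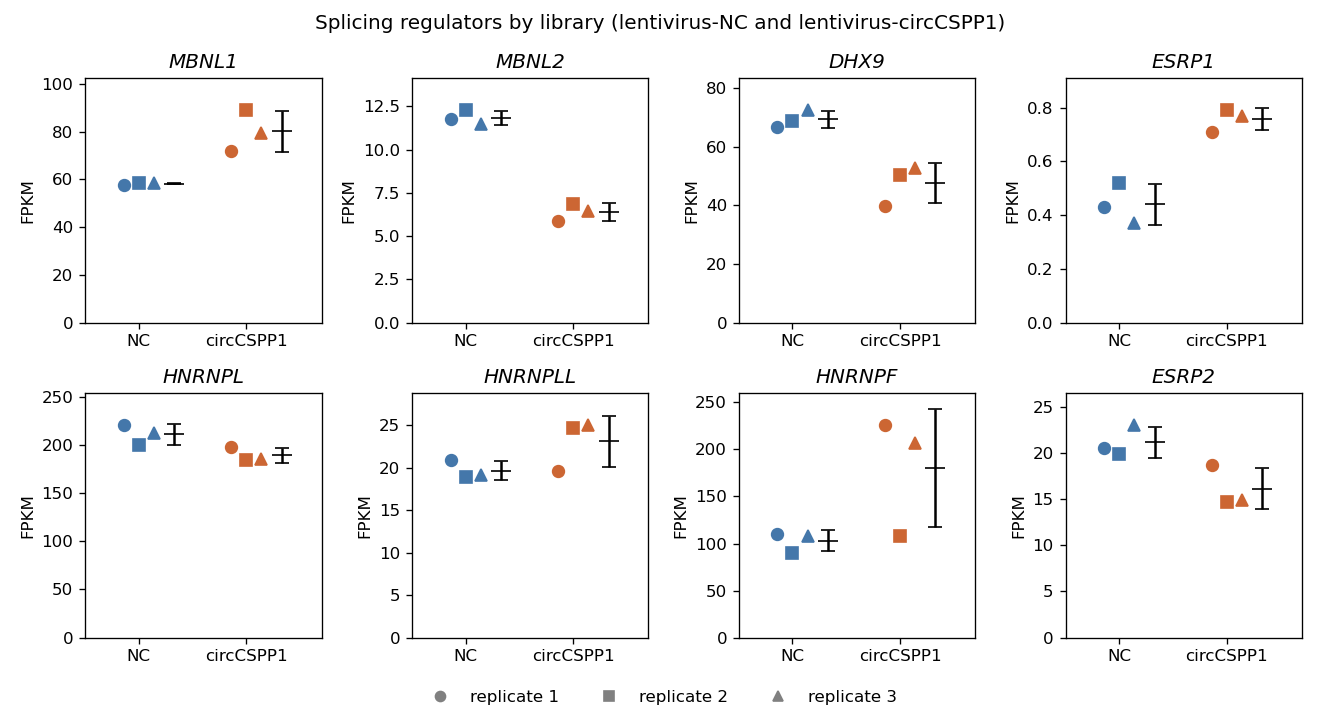
FPKM of 8 members in each library (circle, square and triangle for replicates 1, 2 and 3), with the mean and SD of the 3 libraries of each group as a black bar. MBNL2 lay at 5.84 to 6.85 FPKM in lentivirus-circCSPP1 and above 11 FPKM in lentivirus-NC, whereas HNRNPF spread from 108.3 to 225.8 FPKM within lentivirus-circCSPP1.

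Because the study describes circCSPP1 as a sponge for miR-520h, the 3′ UTRs of the members were searched for matches to the seed of this microRNA. Its mature sequence (RefSeq, GRCh38.p14) is shown with the seed, bases 2 to 8, in capitals. It is followed by 30-base windows of 4 member transcripts (GENCODE release 29, GRCh38) with the match in capitals, chosen to show the called member that holds a match, matches of 8 bases and a further match of 7 bases. The coordinates are those of the match, and the sequences are given on the transcript strand.
hsa-miR-520h: aCAAAGUGcuucccuuuagagu
MBNL1, chr3:152462569-152462575 (+ strand): tgttgcctataCACTTTGtacatttaattg
PTBP3, chr9:112218006-112218013 (- strand): tagtatacataCACTTTGAgacacaaggtg
MBNL3, chrX:132376150-132376157 (- strand): acatgctgaagCACTTTGAtcttgccataa
RBFOX2, chr22:35743020-35743026 (- strand): gcaggcagaggCACTTTGtacttgctccaa

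A match was CACTTTG (bases 2 to 8) or ACTTTGA (bases 2 to 7 followed by A) on the transcript strand, and the overlapping 8 bases that hold both were counted once. Of 41 tested members with an annotated 3′ UTR, 15 held at least 1 match (36.6%), beside 32.9% of 12212 genes. Their median log2 fold change was 0.03 and that of the 26 without a match -0.04, where all genes gave -0.03 with and without a match. MBNL1, with 1 match, was the called member among the 15, and neither MBNL2 nor DHX9 held one. Of all 4014 tested genes with a match, limma called 156 higher and 216 lower. Of the 8198 without a match it called 415 higher and 594 lower. The 3′ UTRs with a match were longer, with a median of 3438 nt in members against 1594 nt without. A match of this sort is a description of letters and not a tested binding site.

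The enzymes that act on double-stranded RNA differed in outcome, DHX9 passing the test and ADAR not. DHX9 (chromosome 1, 182839369 to 182887751), a helicase that unwinds paired inverted repeats, measured 66.9, 68.9 and 72.6 FPKM in lentivirus-NC and 39.9, 50.4 and 52.7 FPKM in lentivirus-circCSPP1. The groups did not overlap. The means were 69.5 ± 2.85 and 47.7 ± 6.86 FPKM (SD, n = 3), and DHX9 fell by 0.54 on the log2 scale (standard error 0.118, limma adjusted p = 0.028). The adjusted p was 0.097, 0.11 and 0.12 without lentivirus-NC replicates 1, 2 and 3 and 0.056 without lentivirus-circCSPP1 replicate 3, and it was 0.0062 without replicate 1 of that group, with a log2 fold change of -0.42. Without moderation of the variance it was 0.093. ADAR, which deaminates adenosine to inosine in such duplexes, measured 81.1, 77.5 and 107.8 FPKM in lentivirus-NC and 86.4, 82.6 and 108.7 FPKM in lentivirus-circCSPP1. Replicate 3 was the highest in each group, by more than any distance between the groups at a given number. Its log2 fold change was 0.06 (standard error 0.156, limma adjusted p = 0.83), and it was called under none of the 18 alternatives, whose lowest adjusted p was 0.25.

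HNRNPL (chromosome 19, 38836388 to 38852347) measured 220.2, 199.3 and 212.3 FPKM in the control libraries and 197.2, 183.8 and 185.6 FPKM with lentivirus-circCSPP1. The highest lentivirus-circCSPP1 value was just under the lowest lentivirus-NC value. The means were 211 ± 10.5 and 189 ± 7.28 FPKM (SD, n = 3), a ratio of 0.897, and the log2 fold change was -0.16 (standard error 0.0741, limma adjusted p = 0.22). It did not pass under any of the 18 alternatives, where it ranged from -0.21 to -0.11 and the adjusted p from 0.052 to 0.52. Its paralogue HNRNPLL, known for its control of CD45 exons in T cells, had a mean level of 21.4 FPKM and differed in the opposite direction. It measured 20.9, 18.9 and 19.2 FPKM in lentivirus-NC and 19.6, 24.7 and 25.0 FPKM in lentivirus-circCSPP1. In the latter group replicates 2 and 3 stood above all lentivirus-NC libraries and replicate 1 among them. The log2 fold change was 0.22 (standard error 0.12, limma adjusted p = 0.28), and 0.32 (adjusted p = 0.022) without lentivirus-circCSPP1 replicate 1.

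Among the other hnRNP genes, HNRNPF, whose protein binds runs of G, had the largest log2 fold change at 0.74 (standard error 0.26, limma adjusted p = 0.11). It measured 110.2, 90.4 and 108.4 FPKM in lentivirus-NC and 225.8, 108.3 and 206.4 FPKM in lentivirus-circCSPP1. In the overexpressing cells replicates 1 and 3 were near 200 FPKM and replicate 2 lay within the range of the control, so that the groups overlapped. Without replicate 2 the log2 fold change was 1.07 (adjusted p = 0.0077), and without replicate 1 it was 0.54 (adjusted p = 0.16). Its relatives HNRNPH1, HNRNPH2 and HNRNPH3 had log2 fold changes of -0.05, -0.16 and -0.13, and of 0.03, -0.10 and -0.09 without lentivirus-circCSPP1 replicate 1.

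The A/B group holds general exon silencers and AU-rich element binders. HNRNPA3 measured 91.3, 94.8 and 100.4 FPKM in lentivirus-NC and 52.3, 88.6 and 81.2 FPKM in lentivirus-circCSPP1, where replicate 1 was the farthest from the control. Its log2 fold change was -0.40 (standard error 0.186, limma adjusted p = 0.21), and -0.17 (adjusted p = 0.11) without that library. HNRNPA2B1, at 363.4, 377.5 and 377.1 FPKM against 252.2, 352.5 and 342.8 FPKM, had a log2 fold change of -0.25 with all libraries and -0.10 without lentivirus-circCSPP1 replicate 1, and the HNRNPA1 copy HNRNPA1P48 had -0.38 and -0.16. In these members the size of the difference rested largely on 1 library. HNRNPA1 itself was at 629 ± 9.54 and 561 ± 45.8 FPKM (SD, n = 3), with -0.17 as its log2 fold change (limma adjusted p = 0.21) and -0.10 without that library.

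HNRNPA0, which binds AU-rich elements, measured 22.5, 21.6 and 21.8 FPKM in lentivirus-NC and 26.9, 25.9 and 25.4 FPKM in lentivirus-circCSPP1. The groups did not overlap, and the log2 fold change was 0.24 (standard error 0.0854, limma adjusted p = 0.12), and 0.21 (adjusted p = 0.046) without lentivirus-circCSPP1 replicate 1. HNRNPAB and HNRNPR each had a log2 fold change of 0.22 (limma adjusted p = 0.17 and 0.30), which became 0.29 and 0.34 (adjusted p = 0.026 and 0.022) without that library. HNRNPUL1 was at 256 ± 8.62 and 224 ± 3.66 FPKM (SD, n = 3), again without overlap (log2 fold change -0.19, limma adjusted p = 0.12, and 0.031 without that library). HNRNPU, a scaffold attachment protein that also regulates splicing, had 0.08 with all libraries and 0.18 (limma adjusted p = 0.034) without it. The abundant HNRNPK, HNRNPC and HNRNPM lay close to no difference, at log2 fold changes of -0.01, -0.03 and 0.03 (limma adjusted p = 0.97, 0.90 and 0.82), and at 0.09, 0.09 and 0.06 without lentivirus-circCSPP1 replicate 1. HNRNPD and HNRNPDL, AU-rich element binders, had -0.05 and 0.06 with all libraries, and 0.15 (limma adjusted p = 0.35) and 0.25 (adjusted p = 0.029) without it. HNRNPA1L2 had 0.11 and 0.17, and HNRNPUL2 had 0.09 in both fits.

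The 11 tested SR genes spanned log2 fold changes from -0.18 to 0.32, a narrower range than the -0.40 to 0.74 of the 22 hnRNP genes. The median absolute log2 fold change was close in both, at 0.14 and 0.16, and HNRNPF, which overlapped between the groups, set the hnRNP maximum. SRSF8, an expressed retrocopy of SRSF2 whose fragments could be shared with it, stood at the top of the SR genes. It measured 10.1, 9.91 and 10.8 FPKM in lentivirus-NC and 13.1, 13.5 and 12.6 FPKM in lentivirus-circCSPP1. The groups did not overlap, and the log2 fold change of 0.32 (standard error 0.097) had a limma adjusted p of 0.076, which was 0.030 without lentivirus-circCSPP1 replicate 1. SRSF1, the prototype SR protein and a known proto-oncogene, measured 105.6, 101.7 and 111.1 FPKM against 125.3, 119.2 and 119.0 FPKM, also without overlap, with a log2 fold change of 0.19 (limma adjusted p = 0.15). SRSF6 had 0.22 (limma adjusted p = 0.20), and 0.30 (adjusted p = 0.020) without lentivirus-circCSPP1 replicate 1.

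SRSF3, the smallest SR protein, had one of the lowest SR values at -0.18 (standard error 0.232, limma adjusted p = 0.66). It measured 74.5, 67.2 and 80.4 FPKM in lentivirus-NC and 43.1, 83.6 and 76.0 FPKM in lentivirus-circCSPP1. Replicate 1 alone was below the control, and without it the log2 fold change was 0.11. SRSF10, which becomes a splicing repressor when dephosphorylated, turned in the same way from -0.18 to 0.02, and SRSF2, a component of nuclear speckles, from -0.12 to 0.12. SRSF4, SRSF5, SRSF7, SRSF9 and SRSF11 had log2 fold changes of -0.12, 0.14, 0.13, -0.10 and -0.03, and of -0.01, 0.21, 0.16, -0.24 and 0.08 without that library. SRSF12 was at 0.66 to 0.84 FPKM in lentivirus-NC and 0.62 to 0.85 FPKM in lentivirus-circCSPP1.

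The shift of lentivirus-circCSPP1 replicate 1 was common among the members. In 31 of 42 (73.8%) it held the lowest value of its group, beside 46.8% of all genes. In 22 (52.4%) it was below each of the other 5 libraries, beside 35.1% of all genes. The members are AT-rich, with a median GC content of 42.6% in the longest transcript against 49.3% over all genes. Of the 31 members under 49.3% GC, replicate 1 was lowest of its group in 27, and of the 11 at or above it, in 4. Over the 42 members the Spearman correlation of its departure with GC content was 0.558, a description over genes of the same libraries. SRSF3 (39.3% GC) and PTBP3 (36.6% GC) departed by -0.87 and -0.84 on the log2 scale, MBNL2 (36.8% GC) by -0.16 and HNRNPL (55.3% GC) by 0.09. After a correction of each library for GC content and length, 8 of 42 members passed (19.0%, 3 higher and 5 lower), beside 28.6% of all genes (14.4% and 14.2%). MBNL1, MBNL2 and DHX9 were among them, with log2 fold changes of 0.51, -0.73 and -0.50, and the 5 gained were QKI, SRSF8, ESRP2, HNRNPA2B1 and HNRNPA3.

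**Figure D3:**
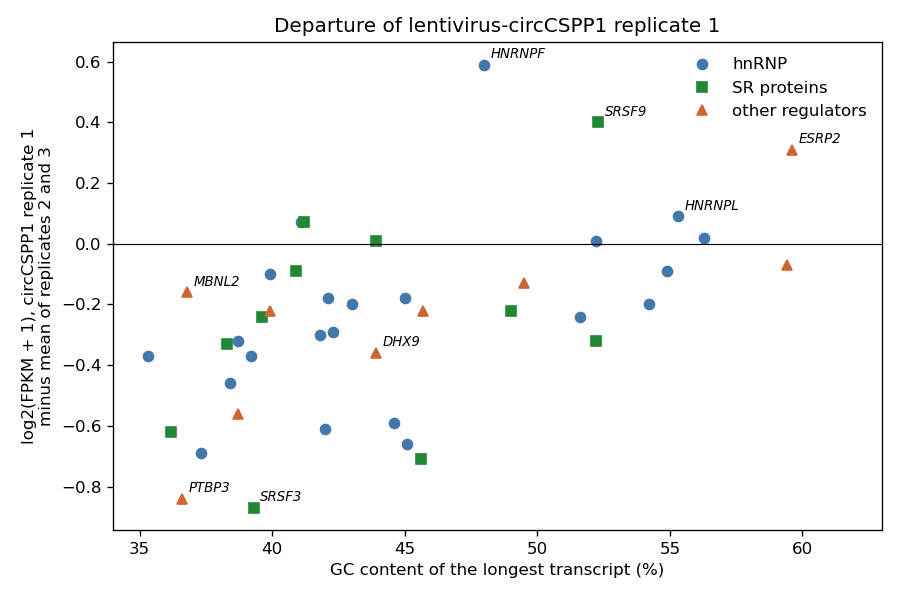
Departure of lentivirus-circCSPP1 replicate 1 from the mean of replicates 2 and 3 of its group, on the log2(FPKM + 1) scale, against the GC content (%) of the longest transcript, for the 42 tested members by family. Most members under 45% GC lie below 0, down to -0.87 for SRSF3, and HNRNPF (0.59) and SRSF9 (0.40) stand highest.

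ESRP1 and ESRP2 promote epithelial exon choice. ESRP2 measured 20.5, 19.9 and 23.0 FPKM in lentivirus-NC and 18.71, 14.72 and 14.98 FPKM in lentivirus-circCSPP1. The groups did not overlap. Its log2 fold change was -0.38 (standard error 0.124, limma adjusted p = 0.094), and -0.48 (adjusted p = 0.010) without lentivirus-circCSPP1 replicate 1. ESRP1, far less abundant, measured 0.43, 0.52 and 0.37 FPKM in lentivirus-NC and 0.71, 0.79 and 0.77 FPKM in lentivirus-circCSPP1, about 48 to 104 fragments per library over its longest transcript, and its groups did not overlap either. It fell under the filter of 1 FPKM. In the fit without a filter it had a log2 fold change of 0.29 (standard error 0.0581, limma adjusted p = 0.034), which understates the ratio of means of 1.72 because of the pseudocount. Epithelial markers also stood apart between the groups. KRT8 lay at 1085 to 1138 FPKM in the control and 379.9 to 456.2 FPKM with lentivirus-circCSPP1, and CDH1 at 9.81 to 11.5 and 2.44 to 3.41 FPKM. KRT18 and EPCAM were likewise lower in all 3 lentivirus-circCSPP1 libraries, EGFR was higher at 188.5 to 209.7 FPKM against 118.3 to 125.9 FPKM, and KRT5 was at or under 0.85 FPKM. The part of these markers in the values of ESRP1 and ESRP2 was not tested.

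QKI, which binds introns beside circularized exons and favours circles during the epithelial-mesenchymal transition, measured 15.3, 16.3 and 15.5 FPKM in lentivirus-NC and 14.2, 23.4 and 19.6 FPKM in lentivirus-circCSPP1. Replicate 1 was below the control and replicates 2 and 3 above it. The log2 fold change was 0.24 (standard error 0.171, limma adjusted p = 0.41), and 0.42 (adjusted p = 0.020) without replicate 1. RBFOX2, an intron-binding regulator of mesenchymal exons, was at 93.5 ± 1.37 and 95.8 ± 9.27 FPKM (SD, n = 3), with 0.03 as its log2 fold change (limma adjusted p = 0.87) and 0.10 without replicate 1.

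The polypyrimidine tract-binding proteins repress exons. PTBP1 measured 230.6, 221.5 and 227.8 FPKM in lentivirus-NC and 252.4, 282.6 and 250.2 FPKM in lentivirus-circCSPP1, with no overlap, and had a log2 fold change of 0.20 (standard error 0.0757, limma adjusted p = 0.13), and 0.23 (adjusted p = 0.040) without lentivirus-circCSPP1 replicate 1. PTBP3 measured 33.9, 34.5 and 35.5 FPKM against 21.8, 45.2 and 35.4 FPKM. The wide lentivirus-circCSPP1 spread enclosed the control, and the log2 fold change was -0.08 (limma adjusted p = 0.87) and, without lentivirus-circCSPP1 replicate 1, 0.20 (adjusted p = 0.19).

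The balance between related members was measured as the ratio of their FPKM within each library, in which the scaling of the library cancels. Of 9 pairs, 3 had ratios that did not overlap between the groups. Of all single genes tested, 36.4% did not overlap, and no share over other pairs of genes was computed. MBNL2/MBNL1 was 0.203, 0.21 and 0.196 in lentivirus-NC and 0.0812, 0.077 and 0.0809 in lentivirus-circCSPP1, a difference of -1.35 on the log2 scale. This pair had both the largest difference and narrow groups, with log2 SDs of 0.0506 and 0.043. ESRP2/ESRP1 was 47.8, 38.3 and 62.3 against 26.4, 18.6 and 19.5 (difference -1.19), and HNRNPLL/HNRNPL was 0.0951, 0.0946 and 0.0903 against 0.0996, 0.134 and 0.135 (difference 0.38). Each of the 3 gave an exact two-sided permutation p of 0.10, the smallest that 3 libraries against 3 allow, and 0.30 when adjusted over the 9 pairs, so no pair could pass.

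The other 6 ratios overlapped between the groups. PTBP3/PTBP1 and SRSF7/SRSF3 differed by -0.29 and 0.31 on the log2 scale, with lentivirus-circCSPP1 replicate 1 at 0.0865 and 1.23 and the other 5 libraries at 0.141 to 0.16 and 0.678 to 0.744. HNRNPUL1/HNRNPU differed by -0.27, HNRNPA1/HNRNPA2B1 by 0.09, HNRNPH3/HNRNPH1 by -0.08 and SRSF5/SRSF6 by -0.09. With single libraries left out, 3 to 5 pairs did not overlap, and the count of 5 came without lentivirus-circCSPP1 replicate 2. Groups separate more easily when they hold fewer libraries.

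**Figure D4:**
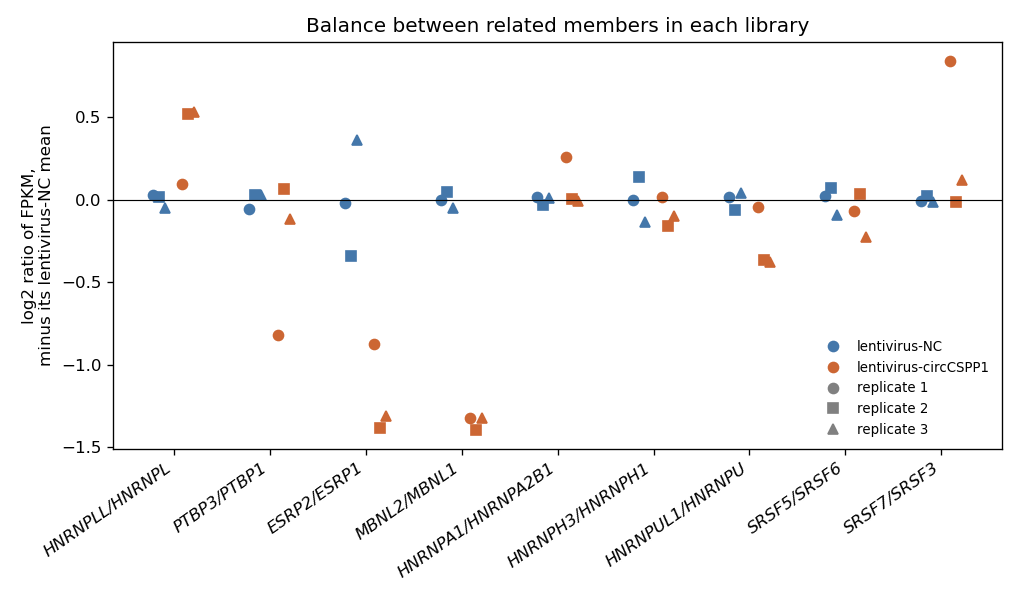
Log2 ratio of FPKM for 9 pairs of related members in each library, minus the lentivirus-NC mean of the pair (blue lentivirus-NC, orange lentivirus-circCSPP1, symbols for replicates). The 3 lentivirus-circCSPP1 libraries lie together well under the control for MBNL2/MBNL1, while replicate 1 stands apart for PTBP3/PTBP1 and SRSF7/SRSF3.

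Beyond the members, 135 genes of the splicing machinery were read from 4 lists, and 127 entries were tested. MATR3 counted as separate entries, with lentivirus-NC means of 18.0 and 77.8 FPKM, and neither was called. With lentivirus-circCSPP1 5 were called higher and 0 lower (3.94%, beside 11.4% of all genes; limma), and 18 had an unadjusted p under 0.05 (14.2%, beside 28.2% of all genes). In the core spliceosome 1 of 55 genes passed, PRPF19, a ubiquitin ligase of the activated spliceosome (log2 fold change 0.35, limma adjusted p = 0.039). Of 44 entries of other splicing regulators 4 passed, all higher. They included EWSR1, an RNA-binding protein, with a log2 fold change of 0.39 (limma adjusted p = 0.014), RBM4 at 0.34 (adjusted p = 0.038) and KHSRP, which also drives mRNA decay, at 0.29 (adjusted p = 0.031). EWSR1 measured 179.7, 180.2 and 180.7 FPKM in lentivirus-NC and 246.3, 236.9 and 227.2 FPKM in lentivirus-circCSPP1. Among the 9 tested SR protein kinases and their importer and the 19 genes of circRNA biogenesis and fate, limma called 0. An unmoderated test also called 0 of them (beside 6.77% of all genes), and 0 and 3 had an unadjusted p under 0.05 (limma). The count of 5 became 24 without lentivirus-circCSPP1 replicate 1 (18.9%, beside 28.5% of all genes) and 3 without replicate 2 (2.36%, beside 9.41%). It was 0 (limma) without replicate 3 or any 1 of lentivirus-NC replicates 1, 2 and 3, where 8 to 12 of these genes had an unadjusted p under 0.05 and 2.43% to 3.65% of all genes were called.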

How the data were processed

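The 6 RNA-seq libraries of DU145 cells, 3 of lentivirus-NC and 3 of lentivirus-circCSPP1, were grouped by their labels. Per the labels, mRNA was selected on poly-T beads and sequenced from both ends on a NovaSeq instrument, and the authors deposited 1 table of FPKM values, rounded to 2 decimals. The submitters' processing notes name hg38, and the aligner and counter are not given in the sources used here. Counts were not used here, and the number of per-sample columns not used was 0.

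Values were taken to log2(FPKM + 1), a scale that understates changes of low genes. After removal of genes whose mean was under 1 FPKM, 12322 entered limma 3.58.1 (R 4.3.3, variance trend, two-sided, no covariate). Ratios of paralogues were tested by exact permutation. The methods name no test for the RNA-seq, and a 2-sample test with no moderation served as an alternative. The members, lists and pairs were chosen with earlier results of these data known. Named genes were HNRNPL, HNRNPLL, called members, the 3 largest rises and falls per family, the paired members and up to 3 called genes per list and direction, and the fourth called gene of a list, other members and markers are named for completeness. Some items that these rules cover are not reported here. Depth was read from the steps between low FPKM values of genes with 1 transcript under 800 nt (93.8% to 98.7% within 0.15 of a step). Transcript length, GC content, 3′ UTRs and coordinates came from GENCODE release 29 (GRCh38), which may not be the authors' annotation. The fits were tested on simulated data. Alternatives were 2 pseudocounts, other filters, scalings, variance models, a replicate block, a GC and length correction, and leaving out each library. Figures were drawn with matplotlib 3.10.9.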

Additional observations from a re-analysis of the deposited data

How the results depend on the processing

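MBNL2 and HNRNPL stayed on their side of an adjusted p of 0.05 under all 18 alternatives, MBNL1 under 12 and DHX9 under 13, with no change of direction. The count of members called higher, 1 of 42, was 2 with no filter on low values, 2 without moderation of the variance, 3 after the GC content and length correction, 4 with that correction and the replicate block together, and 0 to 11 when single libraries were left out. Where it was 0, limma gave 1 to 3 higher members with an unadjusted p under 0.05. The count called lower, 2, was 1 without moderation, 5 after the correction, 4 with correction and block, and 1 to 4 with single libraries left out. With no filter, 45 members and 17116 genes were tested, and 525 of all genes were called higher and 878 lower. Over all 12322 genes of the main fit, 578 were called higher and 821 lower. These were 381 and 453 without moderation, 1770 and 1752 after the correction, and 1349 and 1367 with correction and block. With single libraries left out they were 146 to 1624 and 154 to 1888. In both directions together the main count of 1399 was 834, 3522, 2716 and 300 to 3512 in that order. It was 923 with the replicate block alone. The 5 other splicing genes became 1 under the block, 17 after the correction, 9 with both and 0 to 24 with single libraries left out, and the 3 paralogue ratios that did not overlap became 3 to 5. The fits with a library left out also had fewer libraries, and the cause of these changes was not tested. The series text calls the samples paired without saying what pairs them, and the labels link same-numbered libraries only by the number. Deviations of same-numbered libraries from the group means correlated at 0.0734, 0.00653 and 0.0572. Libraries numbered 1 and 3 correlated best with their own number, and those numbered 2 did not. With 3 libraries per group these values cannot decide whether the samples were paired. Under the replicate block MBNL1 had an adjusted p of 0.054 and HNRNPF of 0.039 (limma). 3 libraries per group limit every value here.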
